A study of Mus musculus with 11 samples.

Results

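The 6 Gata genes of the mouse, Gata1 to Gata6, encode the GATA family of transcription factors. Positions of peaks from a GFP pull-down of tagged Smchd1 were examined at these genes in 2 deposited peak lists. The genes were chosen by name, and all 6 were found among the 21761 coding genes that RefSeq places on this assembly (GRCm38.p6, which mm10 is). Smchd1, a non-canonical member of the SMC proteins that shape chromosomes, helps to keep genes silent on the inactive X and at clustered autosomal loci such as imprinted regions. Its binding was mapped by chromatin immunoprecipitation and sequencing (ChIP-seq) with an antibody to GFP in neural stem cell lines made from C57BL/6 embryos at embryonic day 14.5 and grown for at most 20 passages. Knock-in cells carried the Smchd1-GFP allele on both copies. Wild-type cells carry no tag for the antibody and so show its background. Whole cell extract was the second kind of control. How the controls entered each peak list is not given, so whether background was removed from the peaks is unknown.

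The 11 libraries formed 6 groups. Chromatin broken by 30 min of sonication gave 6 libraries from female cells, 2 each of knock-in cells, wild-type cells and whole cell extract. Digestion with micrococcal nuclease (MNase), which cuts the DNA between nucleosomes, gave 2 knock-in libraries, 2 wild-type libraries, 1 male and 1 female in each group, and 1 female whole cell extract library. Each experiment was deposited as 1 list of peaks, with 2840 peaks for MNase and 2196 for sonication, and with no value per library. Neither depth nor the spread between replicates was therefore known for any peak, knock-in was not compared with wild-type cells, and no test was run. Male and female cells could not be told apart in the MNase list. Expression was not measured in these libraries, so the cell type was not checked against its markers.

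GATA factors bind DNA through a pair of zinc fingers that recognise the letters GATA. Gata1, Gata2 and Gata3 are known best from blood. Gata1 drives red cell and platelet formation, Gata2 maintains blood stem cells, and Gata3 directs T cells. Gata2 and Gata3 also specify groups of neurons in the brainstem and spinal cord. Gata4, Gata5 and Gata6 act in heart, gut and other organs that derive from mesoderm and endoderm. Many genes for lineage factors are held silent by Polycomb proteins in cells of other lineages, and such genes often have promoters rich in the dinucleotide CpG.

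MNase peaks lay at Gata3, Gata4 and Gata6, and none lay at Gata1, Gata2 or Gata5. With a peak counted when at least 1 bp of it fell in the gene or within 5 kb of either boundary, Gata4 had 7 peaks, Gata3 had 5 and Gata6 had 2, together 14 peaks over 11.7 kb. That is 3 of 6 genes, where 5.29% of all coding genes had a MNase peak within 5 kb. Inside the annotated gene, Gata3 and Gata4 kept all their peaks and Gata6 had 0, so that 2 of 6 genes held a peak and 4.13% of coding genes did. Within 50 kb the 3 genes and 14 peaks were the same, and 11.3% of coding genes had a peak at that distance. The distance did not decide which genes were counted at 5 kb or 50 kb. The peaks of Gata6 lay 1259 bp and 2309 bp from its boundary, and the next nearest gene, Gata2, was 648 kb from its closest MNase peak.

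**Figure D1:**
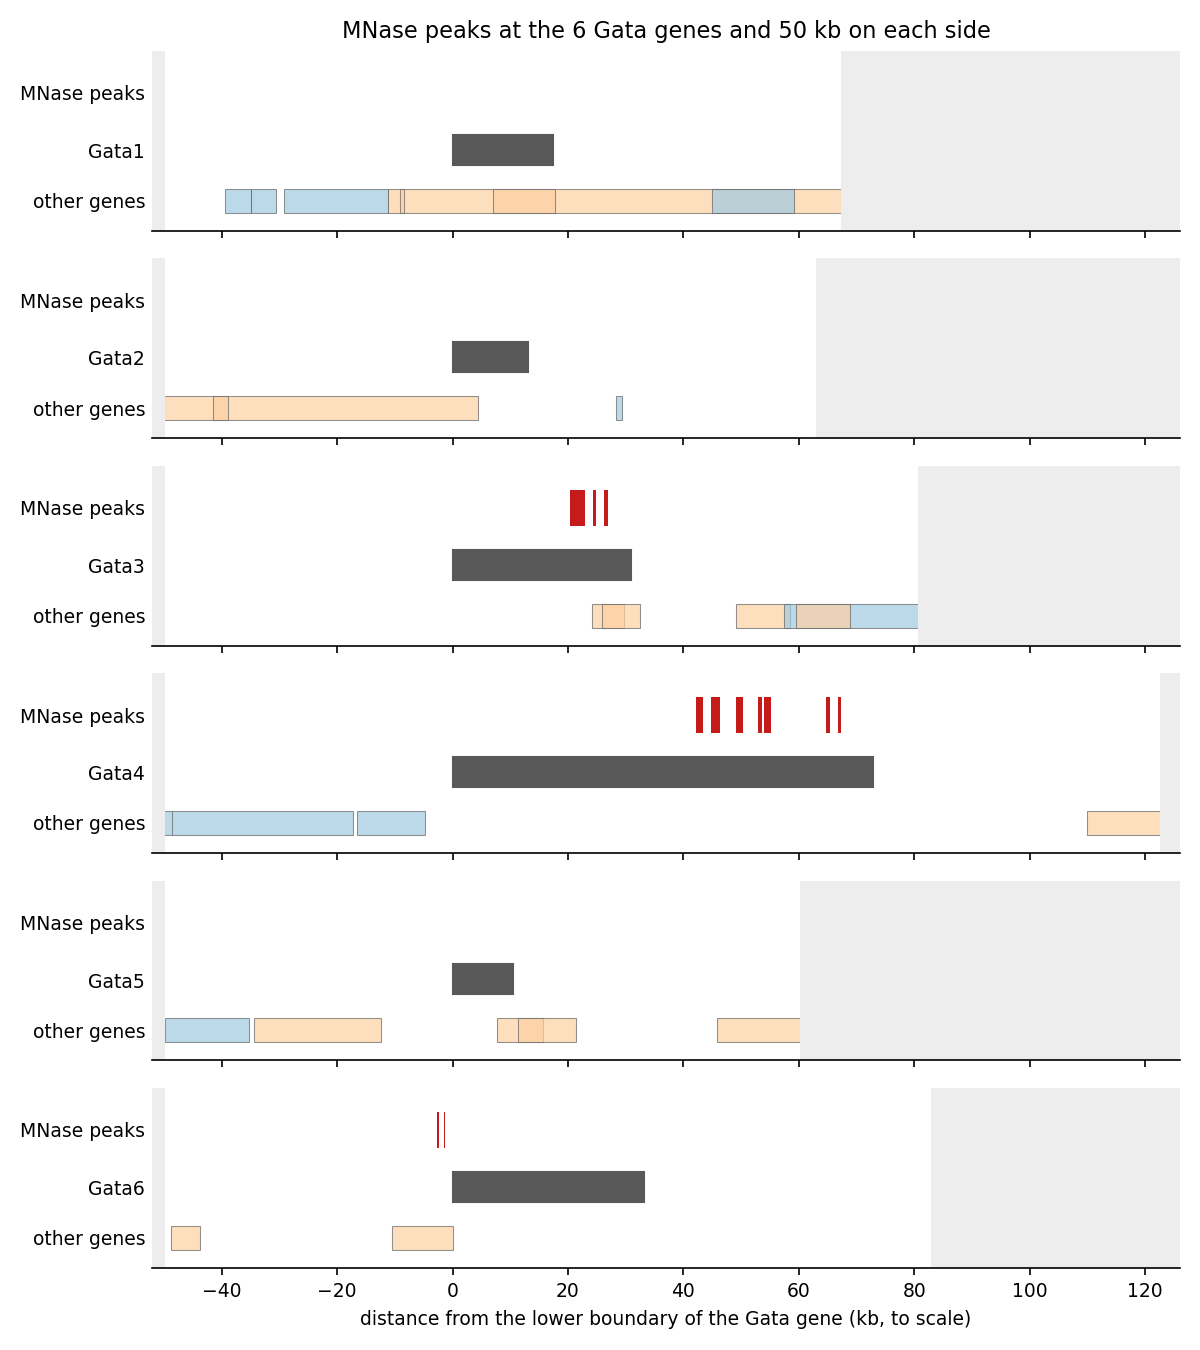
Map of the 6 Gata genes with 50 kb on each side, to scale, with distance in kb from the boundary of lower coordinate on the horizontal axis. Red boxes are MNase peaks, dark bars the Gata gene, blue and orange boxes coding and other genes nearby, and grey areas lie beyond 50 kb and are not shown. Peaks fall inside Gata3 (5) and Gata4 (7) and beside Gata6 (2), and the rows of Gata1, Gata2 and Gata5 are empty.

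The sequence at the start of Gata3 is shown because a MNase peak covered it, and those at Gata5, Gata2 and Gata1 because no peak lay near them. RefSeq promoter windows (build GRCm38.p6, 250 bases before to 50 after the annotated start) were at hand for 4 of the 6 genes, and Gata2 has 2 such starts, of which the one at the boundary of the gene is printed. Each is written 5′ to 3′ on the strand of the gene, with CpG dinucleotides in capitals.
Gata3, chr2:9878551-9878850, minus strand: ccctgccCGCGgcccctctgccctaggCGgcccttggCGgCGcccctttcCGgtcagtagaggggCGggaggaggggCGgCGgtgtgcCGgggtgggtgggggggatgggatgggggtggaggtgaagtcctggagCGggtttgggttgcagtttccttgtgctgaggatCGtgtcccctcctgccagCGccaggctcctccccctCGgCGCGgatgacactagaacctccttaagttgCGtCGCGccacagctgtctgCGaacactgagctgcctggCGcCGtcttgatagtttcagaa
Gata5, chr2:180334630-180334929, minus strand: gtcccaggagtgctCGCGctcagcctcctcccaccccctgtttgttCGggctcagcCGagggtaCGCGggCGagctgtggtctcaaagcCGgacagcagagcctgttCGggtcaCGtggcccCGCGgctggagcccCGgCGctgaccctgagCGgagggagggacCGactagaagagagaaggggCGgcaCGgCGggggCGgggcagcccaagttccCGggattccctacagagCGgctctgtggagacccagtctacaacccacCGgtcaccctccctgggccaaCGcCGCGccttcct
Gata2, chr6:88193641-88193940, plus strand: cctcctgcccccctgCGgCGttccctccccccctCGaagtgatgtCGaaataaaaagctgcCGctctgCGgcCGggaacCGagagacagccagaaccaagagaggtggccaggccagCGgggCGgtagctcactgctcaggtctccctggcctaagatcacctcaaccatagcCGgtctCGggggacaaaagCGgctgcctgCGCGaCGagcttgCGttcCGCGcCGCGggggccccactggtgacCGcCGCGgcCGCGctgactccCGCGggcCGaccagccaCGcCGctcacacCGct
Gata1, chrX:7967861-7968160, minus strand: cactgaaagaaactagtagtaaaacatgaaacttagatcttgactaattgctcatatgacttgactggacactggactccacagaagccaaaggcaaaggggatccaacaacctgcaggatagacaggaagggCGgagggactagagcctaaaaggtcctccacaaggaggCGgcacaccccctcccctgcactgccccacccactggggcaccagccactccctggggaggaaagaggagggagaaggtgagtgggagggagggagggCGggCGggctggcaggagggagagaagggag

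Gata4, a regulator of heart and foregut development, had the most peaks of the family. The gene (identifier 14463) spans 72.8 kb from 63198914 to 63271712 on chromosome 14 in mm10. Its peaks ran in coordinate order from 63241051 to 63242250 (1200 bp), 63243751 to 63245250 (1500 bp), 63247951 to 63249300 (1350 bp), 63251851 to 63252600 (750 bp), 63252901 to 63254100 (1200 bp), 63263551 to 63264300 (750 bp) and 63265651 to 63266250 (600 bp). All 7 lay inside the gene and in its part of higher coordinate, in a stretch of 25.2 kb that began 57.9% and ended 92.5% of the way along the gene. Peaks filled 29.2% of that stretch. The first 5 were separated by 300 to 2700 bp, and a gap of 9.45 kb set them apart from the last pair. The nearest peak to a boundary was 5462 bp from the upper one. Outside the gene the next MNase peak was 168.9 kb away on the upper side and 4.66 Mb away on the lower side. The table of genes gives no exons, so exon or intron is not stated for any peak.

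Gata3 directs T cell fate and takes part in the development of sympathetic and serotonergic neurons. Its peaks were packed at an annotated start and upstream of it. The gene (identifier 14462) spans 30.9 kb from 9857078 to 9887953 on chromosome 2. Its peaks ran from 9877501 to 9878850 (1350 bp), 9878851 to 9879600 (750 bp), 9879601 to 9880050 (450 bp), 9881401 to 9881850 (450 bp) and 9883351 to 9883950 (600 bp). The first 3 adjoined with no gap and formed 1 run of 2.55 kb. The widest peak held all 300 bases of the promoter window shown above, from 250 bp upstream to 1099 bp downstream of the start at 9878600 on the minus strand. The other 4 peaks lay upstream of that start, the last of them ending 5.35 kb away. Since the gene's annotated span reaches 9.35 kb upstream of this start, these peaks were still inside it. Of all 32851 promoter windows in the RefSeq table, 0.858% were overlapped by a MNase peak and 0.435% lay wholly inside such peaks. The next peaks beyond the group were 697 kb and 488 kb away.

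The 2 most distant Gata3 peaks also fell in non-coding genes that share its span. The peak at 9881401 lay 155 bp inside the lower boundary of 4930412O13Rik, a long non-coding RNA gene from 9881246 to 9886767 that is annotated on the opposite strand to Gata3. The peak at 9883351 lay in 4930412O13Rik and, 310 bp from its lower boundary, in 9230102O04Rik, another long non-coding RNA gene from 9883041 to 9889540. The promoter window of 4930412O13Rik was not overlapped and ended 105 bp from the nearest peak. Peak positions alone do not assign a peak to 1 of these overlapping genes.

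Gata6, a regulator of endoderm and heart outflow development, had 2 narrow peaks outside the gene. The gene (identifier 14465) spans 33.1 kb from 11052510 to 11085636 on chromosome 18. The peaks, from 11049751 to 11050200 (450 bp) and from 11050951 to 11051250 (300 bp), lay 750 bp apart on its lower side. Both were inside Gata6os, a non-coding gene from 11042037 to 11052567 whose span overlaps that of Gata6 by 58 bp. The next MNase peaks were 338 kb and 1.57 Mb away. The narrower of the peaks had the smallest width in the list.

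Gata1, Gata2 and Gata5 had no MNase peak within 50 kb. Gata2 (identifier 14461), needed for blood stem cells and for some spinal and midbrain neurons, spans 13.1 kb from 88193891 to 88207032 on chromosome 6. Gata5 (identifier 14464), a factor of heart valve and gut development, spans 10.4 kb from 180325088 to 180335503 on chromosome 2. Its nearest MNase peak was 1.58 Mb away. Gata1 (identifier 14460), the erythroid factor, spans 17.4 kb from 7959260 to 7976663 on X, 1.87 Mb from the nearest MNase peak. Only 10 MNase peaks lay on X, and 0.415% of its 963 coding genes had one within 5 kb, so that the absence at Gata1 is the common state of an X gene in this list. The genes without peaks were also the 3 shortest of the family, from 10.4 to 17.4 kb, and those with peaks the 3 longest, from 30.9 to 72.8 kb. The part of gene length in the difference was not tested. Counted over the gene with 5 kb on each side, Gata3 had 122 peaks per Mb, Gata4 84.5 and Gata6 46.4.

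The numbers of peaks at Gata4 and Gata3 were high among coding genes. Of 21761 coding genes, 0.211% had at least 7 MNase peaks within 5 kb, 0.381% had at least 5 and 1.34% had at least 2. The place of Gata3 by number counts its 3 adjoining peaks separately. Among the 1151 coding genes with any such peak, 74.7% had only 1 and the median was 1. The bases covered at Gata4, 7350, were reached or passed by 36 coding genes, and the 3600 at Gata3 by 86. At Gata6 750 bases were covered, which 420 coding genes reached or passed. Each of these counts includes the Gata gene itself. As a share of the gene with its flanks, coverage was 8.88% at Gata4, 8.81% at Gata3 and 1.74% at Gata6. Gata3 and Gata4 were thus covered to nearly the same extent, although Gata4 had more and wider peaks over a longer gene.

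**Figure D2:**
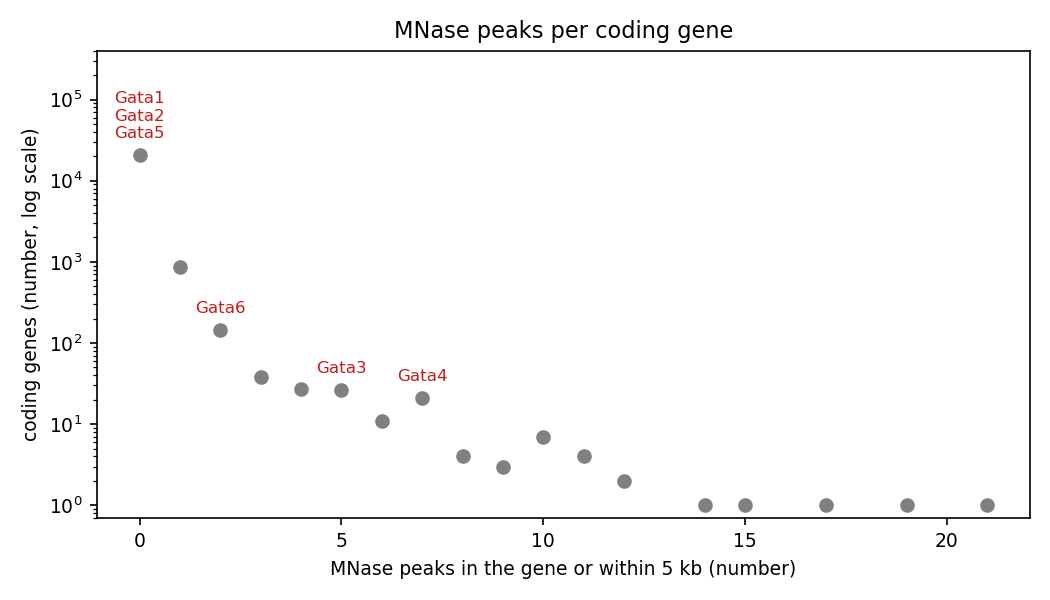
Number of coding genes (vertical axis, log scale) with each number of MNase peaks in the gene or within 5 kb (horizontal axis), with the Gata genes written above their point. Gata4 with 7 and Gata3 with 5 peaks stand among few genes, and Gata1, Gata2 and Gata5 are with the 20610 coding genes that have none.

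Peak width differed between the members. Width is the only size the lists hold, it moves in steps of 150 bp, and the smallest width is 300 bp. At Gata4 widths ran from 600 to 1500 bp with a median of 1200 bp. At Gata3 they ran from 450 to 1350 bp with a median of 600 bp, and at Gata6 the widths were 300 and 450 bp. The ranges of Gata3 and Gata4 overlapped, and the widest Gata6 peak was as wide as the narrowest at Gata3. Over the 14 peaks the median was 750 bp (mean 836 bp ± 402, SD over peaks), and 10 of 14, or 71.4%, were wider than 450 bp. In the whole MNase list the median was 450 bp and 38.1% of peaks were wider than that. A width of at least 1200 bp was reached by 5 of the 14 peaks and by 8.03% of the list. Neighbouring peaks in 1 gene are not independent, and where a continuous stretch was split, as at Gata3, widths and numbers of peaks depend on the split.

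**Figure D3:**
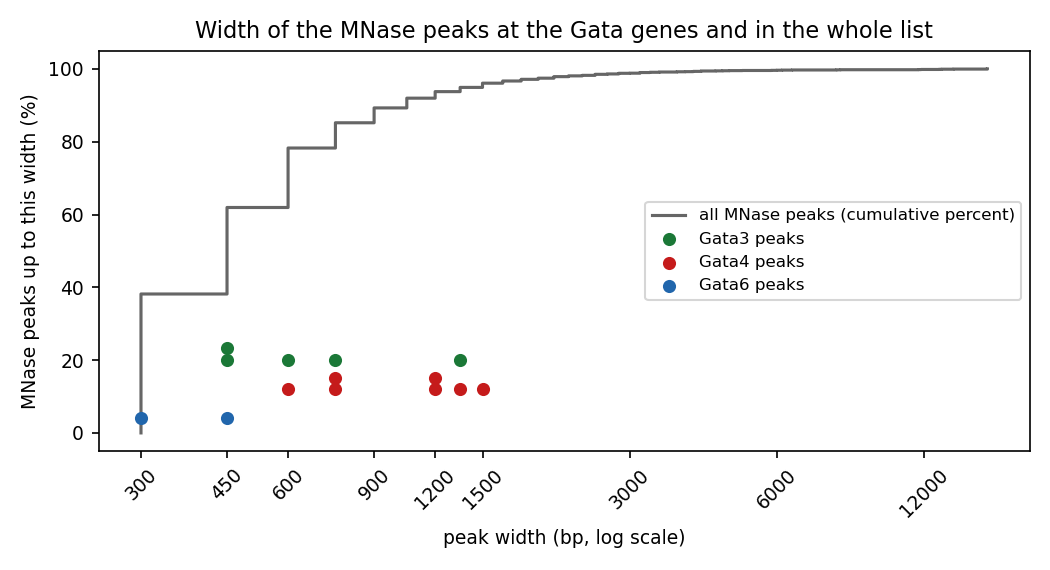
Widths of the MNase peaks at Gata3, Gata4 and Gata6 (points, equal widths stacked, vertical position of the points without meaning) below the cumulative percentage of all 2840 MNase peaks up to each width (line), with width in bp on a log axis. The Gata4 points lie at 600 bp and above, while 61.9% of all peaks are at most 450 bp wide.

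CpG content could be compared only for the 4 of 6 genes with a promoter window, so Gata4 and Gata6 are not covered. Among those 4, it did not separate Gata3, whose window lay inside a peak, from Gata1, Gata2 and Gata5. The Gata3 window printed above held 22 CpG in 300 bases. The Gata5 window held 26, and the Gata2 windows held 32 at the start shown and 29 at the other start, from 88198414 to 88198713. All of these were CpG-rich beside a median of 7 over all windows, but no MNase peak lay within 648 kb of Gata2 or 1.58 Mb of Gata5. The Gata1 window held 4 and is the CpG-poor one of the set. Over the table, windows with a MNase peak had a median of 20 CpG and 50.4% of them had 20 or more, compared with a median of 7 and 26.3% for windows without one. A peak was found at 0.168% of the 12496 windows with 0 to 4 CpG and at 0.675% of the 6074 with 5 to 9. With 10 to 19 CpG the share was 1.40% of 5580 windows. Among the 4864 windows with 20 to 29 CpG, 1.77% had a peak, and among the 3837 with 30 or more, 1.46% did. The share was thus lowest in the CpG-poor windows, but most windows of every class, like those of Gata2 and Gata5, were without a peak.

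**Figure D4:**
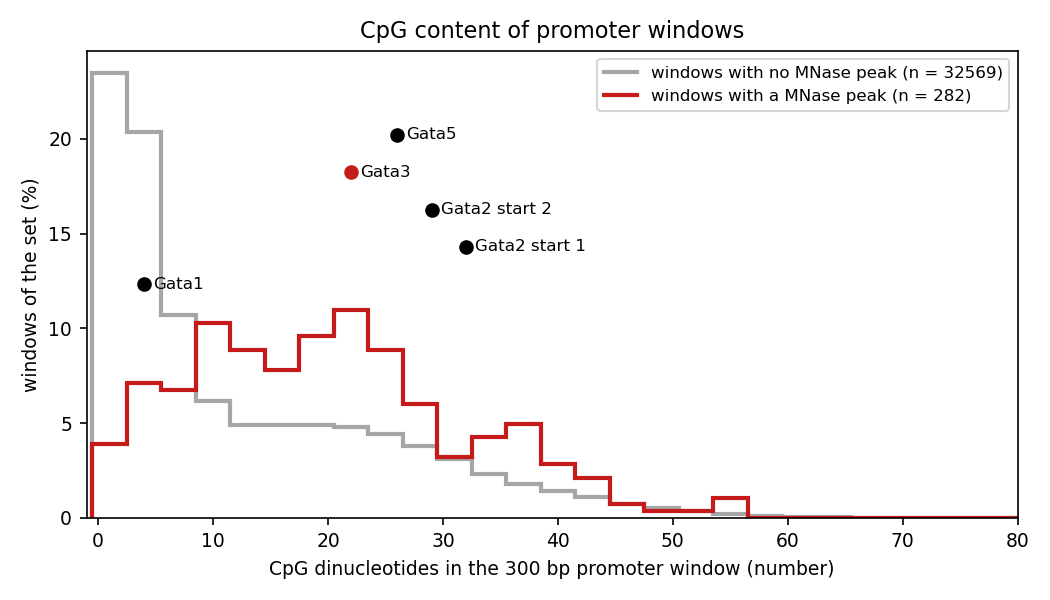
Number of CpG dinucleotides in promoter windows of 300 bp (horizontal axis) as a percentage of windows with a MNase peak (red line, 282 windows) and without one (grey line, 32569 windows). Points mark the Gata windows at their CpG number, red for the window inside a peak, and their height has no meaning: Gata3 at 22 lies below Gata5 at 26 and Gata2 at 29 and 32.

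The letters that GATA factors recognise were also looked up in these windows, since GATA genes are known to regulate themselves and each other. The search was for the letters GATA on either strand. The Gata3 and Gata1 windows held 1 match each, and the Gata5 window and both Gata2 windows held 0. Of all promoter windows 57.9% held at least 1 match, and of those with a MNase peak 42.9% did. Windows with a MNase peak were also richer in G and C, with a median of 58.7% beside 52.7% over all windows. The part of base content in the lower share of matches was not tested. A match in these letters is a description of the window and not a site.

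No sonication peak lay in any Gata gene, within 5 kb or within 50 kb, and none overlapped a Gata promoter window, where 0.0761% of all windows had one. Over coding genes the shares with a sonication peak were 2.92% in the gene, 3.39% within 5 kb and 7.85% within 50 kb, so that 0 of 6 is near the background. Gata1 was closest, 318 kb from the peak at 8294551 to 8294850 on X. Of the coding genes on X, 13.6% had a sonication peak within 5 kb and 32.8% within 50 kb. Gata3 was 357 kb from its nearest sonication peak, Gata6 1.04 Mb, Gata4 1.40 Mb, Gata5 1.44 Mb and Gata2 1.88 Mb. The members with MNase peaks and those without were alike in having none. Of the deposited broad domains of enrichment, none overlapped a Gata gene, beside 2.53% of coding genes that were overlapped by one. For 5 of the 6 genes the list holds no domain on their chromosome, and the nearest on X began 5.50 Mb from Gata1.

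The genes next to the Gata genes were examined in the same way. Within 50 kb of the 6 genes the table lists 26 other genes, 9 of them coding. None of the 9 coding neighbours was overlapped by a peak of either list, which is near the background of 4.13% of coding genes for MNase and 2.92% for sonication. At Gata4 these were Neil2, a DNA repair glycosylase gene 4759 bp away, and Fdft1, the squalene synthase gene 17.2 kb away. At Gata3 the neighbour was Taf3, a general transcription factor gene 26.6 kb away, and Gata6 had no coding neighbour at this distance. Among the members without peaks, Gata1 had Hdac6, a deacetylase gene, with Pcsk1n, Eras and Glod5, Gata2 had the chaperone gene Dnajb8, and Gata5 had Rbbp8nl. Of the 17 other neighbours, 3 were overlapped by MNase peaks, beside 1.31% of all records that are not coding genes. They were 4930412O13Rik, 9230102O04Rik and Gata6os, and their peaks are those already given for Gata3 and Gata6, so they are not separate evidence of peaks nearby.

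Genes of GATA partner proteins were listed in 4 sets by function. Of the 10 blood partners, among them the bHLH gene Tal1, the LIM-only gene Lmo2 and the GATA cofactor gene Zfpm1, 0 had a MNase peak within 5 kb. Of the 11 partners in heart, endoderm and other mesoderm, 2 had a peak within 5 kb. Hand2, a bHLH factor of heart and limb, had 4 of up to 900 bp, and Sox17, an endoderm factor, had 1 of 600 bp. Of 8 neural partners of Gata2 and Gata3, 1 had a peak within 5 kb: Fev, which marks serotonergic neurons, had 2 of up to 1050 bp. Of 9 genes of other proteins with a GATA-type zinc finger, Trps1, a repressor gene of cartilage and hair, had 2 peaks of 300 bp and Gatad2a, a subunit gene of the NuRD complex, had 1 of 300 bp. Together 5 of the 38 partner genes counted (13.2%) had a MNase peak within 5 kb, beside 5.29% of coding genes, and Hand2, with the most peaks, had fewer than Gata3 and Gata4. One partner gene, Zfpm2, the cofactor of Gata4 in the heart, had a sonication peak within 5 kb, which is 2.63% of the 38 beside 3.39% of coding genes. Within 50 kb, 6 of the 38 (15.8%) had a MNase peak beside 11.3% of coding genes: 0 blood partners, 3 in the heart, endoderm and mesoderm list, 1 neural partner and 2 of the other zinc finger genes. A sonication peak lay within 50 kb of 3 of the 38 (7.89%) beside 7.85% of coding genes.

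The coding genes most like Gata4 and Gata3 were sought by the number of MNase peaks within 5 kb and then by the bases they covered, among genes more than 100 kb from any Gata gene. Besides Gata4, 20 coding genes had 7 peaks. The nearest to its 7350 covered bases were Hoxa2, a hindbrain patterning gene, with 7031, Tchh, the trichohyalin gene of hair follicles, with 6600, and Isl1, a LIM homeobox gene of motor neurons and heart, with 6300. Besides Gata3, 25 coding genes had 5 peaks. The nearest to its 3600 covered bases were Chchd7, a gene for a small mitochondrial protein, with 3511, Evx1, a homeobox gene beside the HoxA cluster, with 3750, and Hoxc13, a homeobox gene of hair and nail, with 3364. None of these 6 genes had a sonication peak within 5 kb. The likeness is in 2 measures from 1 list and covers no sample or cell type. It does not extend to gene length. Hoxa2, Tchh and Isl1 span 2.4, 6.7 and 11.4 kb beside 72.8 kb for Gata4. Chchd7, Evx1 and Hoxc13 span 12.5, 4.9 and 7.7 kb beside 30.9 kb for Gata3. As a share of the gene with its flanks, coverage was therefore higher at each of the 6 than at its Gata gene. For Gata3 the number of peaks also depends on how its adjoining peaks were split.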

How the data were processed

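The 11 libraries were grouped by their titles. The authors deposited 2 peak lists and a list of broad domains. Start and end positions in base pairs, per the file headers, were the values used. Per the submitters' processing notes, bcl2fastq, Bowtie 0.12.9, MACS2 and mm10 were used, with no role or order stated. SeqMonk is named in the MNase list as the source of its peaks. All peaks lie on a grid of 150 bp and the value column is empty. How controls entered each list: not given in the sources used here. The score per domain was not used.

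Peaks were counted in each gene, within 5 kb and within 50 kb (at least 1 bp), with Python 3.11.15, pandas 2.3.3 and numpy 2.4.6. Gene spans came from 49555 RefSeq records on GRCm38.p6, 21761 of them coding, on the autosomes, X and Y and beyond the first 3 Mb. All 6 genes and all 38 partner genes used matched by symbol; 1 further gene of the partner lists is not reported here. Counting was tested on simulated data. A test between genotypes, set down for files with values per library, could not be run.

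The members and lists were chosen with earlier results of these data known. Named were the 6 genes, their coding neighbours within 50 kb, up to 5 members of each partner list with the most MNase peaks, and the 3 genes nearest in pattern to Gata4 and to Gata3. Tal1, Lmo2, Zfpm1, Zfpm2 and the non-coding neighbours were chosen for naming once their values had been seen. The promoter windows, widths and counts within 1 Mb were also examined after the files were seen.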

Additional observations from a re-analysis of the deposited data

How the results depend on the processing

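Against the 14 MNase peaks within 5 kb, 12 were counted in the gene body alone, 14 within 50 kb or with at least 50% of the peak inside, 13 among peaks wider than 300 bp and 10 with peaks within 1 kb of each other joined. The number of genes with a MNase peak was 3 under each of these except the gene body, where Gata6 was lost and 2 remained. Covered bases ran from 10950 to 12750 around 11700. Joining moved the median width from 750 to 1275 bp, by construction. Sonication peaks were 0 under every alternative tried. The background of 5.29% was 3.72% over all gene records and 5.58% over autosomal coding genes. No paired analysis was possible because each list pools its libraries and no value per library is given; for the same reason no replicate could be left out, and depth sets an unknown limit on what was called.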

Other observations

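Within 1 Mb of either boundary, Gata3 had 12 MNase peaks, Gata4 had 9 and Gata6 had 4, their own peaks included. Beyond the peaks within 5 kb, 7 remained around Gata3, 2 around Gata4 and 2 around Gata6. Gata2 had 1 and Gata5 had 0 within 1 Mb, where autosomal coding genes had a median of 2 (quartiles 1 and 3, own peaks included) and 22.3% had none. Gata1 had 0, as did 90.8% of coding genes on X. In the sonication list Gata1 had 5 peaks within 1 Mb, the same as the median of coding genes on X, Gata3 had 2, and the other 4 genes had 0, as did 42.3% of autosomal coding genes.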
